A study of Mus musculus with 12 samples.

Results

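The response of the wild-type mouse spleen to bacterial lipopolysaccharide (LPS) was described from 6 of the 12 arrays of the series, chosen by their titles: 3 from DUSP1+/+ mice without treatment and 3 from DUSP1+/+ mice killed 6 h after E. coli LPS was injected into the peritoneum (10 µg for each g that a mouse weighed). Each array held the RNA of the spleen of 1 mouse, hybridised to an Affymetrix MOE430A 2.0 chip. The other 6 arrays, from mice labelled DUSP1-/- with and without LPS (3 each), entered the estimate of the spread, the choice of the brightest probe set of each gene and a check of the Dusp1 signal. Strain, age and sex are not given in the sources used here, and the controls are described as untreated rather than injected with vehicle. All 22626 probe sets that were not hybridisation controls were compared, and 12393 genes were read from 1 probe set each.

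LPS, a component of the outer membrane of Gram-negative bacteria, is recognised by the receptor Tlr4 with Cd14 and Md2. Signalling through Myd88 frees NF-kB and activates MAP kinases, which switch on cytokine and chemokine genes, while signalling through Trif leads to type I interferon, which raises a large set of antiviral genes. The spleen holds white pulp, with B cell follicles and T cell zones on a stromal scaffold, and red pulp, where macrophages recycle iron from old red cells beside sinus endothelium. Between them lies the marginal zone, with its own B cells and macrophages.

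The short sequences that these transcription factors bind can be seen in the promoters of some of the genes that rose. The pair of neutrophil-attracting chemokine genes and the pair of interferon-induced antiviral genes below are shown with 250 bases upstream of the annotated start, from RefSeq on GRCm38.p6, 5′ to 3′ on the strand of the gene, with the motif in capitals. In the Cxcl2 (chr5:90903649-90903898, plus strand) and Cxcl1 (chr5:90890995-90891244, plus strand) windows the capitals mark GGGA and TTCC with any 2 bases between them, the core of an NF-kB site, which here reads as a match on both strands. In the Ifit1 (chr19:34640639-34640888, plus strand) and Ifit3 (chr19:34583279-34583528, plus strand) windows they mark GAAA and GAAA with any 2 bases between them, the core of an interferon-stimulated response element, read on the opposite strand and present at 2 places in each.
Cxcl2: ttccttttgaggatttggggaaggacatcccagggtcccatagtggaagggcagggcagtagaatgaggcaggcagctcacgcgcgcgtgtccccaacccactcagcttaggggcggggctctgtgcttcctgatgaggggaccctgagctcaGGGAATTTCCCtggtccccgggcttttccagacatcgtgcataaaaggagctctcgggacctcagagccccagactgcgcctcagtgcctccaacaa
Cxcl1: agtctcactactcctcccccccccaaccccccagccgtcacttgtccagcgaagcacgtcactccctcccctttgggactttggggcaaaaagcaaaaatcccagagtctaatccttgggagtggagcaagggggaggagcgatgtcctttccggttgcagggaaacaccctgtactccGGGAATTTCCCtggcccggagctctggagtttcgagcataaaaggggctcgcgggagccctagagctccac
Ifit1: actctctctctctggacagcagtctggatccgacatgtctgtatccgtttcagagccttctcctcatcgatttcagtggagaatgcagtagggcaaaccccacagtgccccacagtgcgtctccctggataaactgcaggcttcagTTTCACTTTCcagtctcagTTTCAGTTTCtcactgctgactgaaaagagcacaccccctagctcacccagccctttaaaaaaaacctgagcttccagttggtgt
Ifit3: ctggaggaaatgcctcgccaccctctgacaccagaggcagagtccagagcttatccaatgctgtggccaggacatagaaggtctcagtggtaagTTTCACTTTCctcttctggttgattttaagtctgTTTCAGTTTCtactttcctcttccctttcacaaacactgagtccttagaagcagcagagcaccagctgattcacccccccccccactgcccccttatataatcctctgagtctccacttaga

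Cxcl2 and Cxcl1 were the 2 largest rises with the NF-kB letters among the named genes. By the same rule Mmp13 (chr9) and Saa3 (chr7) held the interferon element, and Ifit1 and Ifit3, the largest rises with it in the antiviral list, were chosen after their values were seen. Windows of this length were used for 9887 of the 12393 genes (12566 windows). The windows of a whole chromosome were left out, so the shares of all windows do not cover it. The interferon element stood in 13 of 35 windows of the antiviral and GTPase genes described below (37.1%), in 6.37% of windows of genes that rose, in 3.11% of those that fell and in 2.74% of all windows. The 35 windows belonged to 28 measured genes, called or not. Of the 12 risen antiviral genes with a window, 5 held the element. The NF-kB letters stood in 11 of 83 windows of cytokine, chemokine, NF-kB and feedback genes (13.3%), in 1.91% of windows of genes that rose, in 0.366% of those that fell and in 1.25% of all. TTCNNNGAA, the interferon-gamma activated site, was in 8.70% of windows of risen and 5.86% of fallen genes (6.00% of all), and TGANTCA, the AP-1 site, in 8.49% and 5.86% (5.67% of all). TGACGTCA, the cyclic AMP element, was in 3.40% and 1.10% (2.12% of all). In the 83 windows the AP-1 site stood in 16 (19.3%), more than the NF-kB letters, and the interferon-gamma site in 8 (9.64%). The interferon element stood in 4 of them (4.82%) and the cyclic AMP element in 1 (1.20%). In the 35 windows the interferon-gamma site stood in 9 (25.7%), the AP-1 site in 7 and the NF-kB letters in 3 (8.57%). The cyclic AMP element stood in 0. Shares above those of all windows were not limited to a single motif in either set. Motifs were searched on both strands without a test, and matches of different motifs may overlap.

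Of the 12393 genes, 1002 differed between the wild-type groups at a limma adjusted p under 0.05 (8.09%), 487 of them higher after LPS (3.93%) and 515 lower (4.16%). The rises were the larger changes: 157 genes were at least 4-fold and 21 at least 16-fold higher, against 91 and 1 lower. In 29 risen genes all 3 controls lay under an intensity of 20, the dim end of the scale, and in 36 fallen genes all 3 LPS arrays did, so that their folds rest on a level near background. The median log2 difference was 1.62 over the risen, -1.42 over the fallen and -0.03 over all genes. The groups of 3 arrays did not overlap in 25.0% of all genes. Called genes were named by size of change only where the groups did not overlap. For those genes the lack of overlap was fixed by the choice. Defining markers of cell types and genes named after their values were seen are the exceptions. Without LPS 3, LPS 2, control 2 or control 1 the call count was 389, 490, 544 or 608, and no call shared with the full set changed sign. Shifting every array to 1 median moved all probe sets up by 0.12 and put 59.5% of the calls on the higher side, against 48.6% as deposited.

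**Figure D1:**
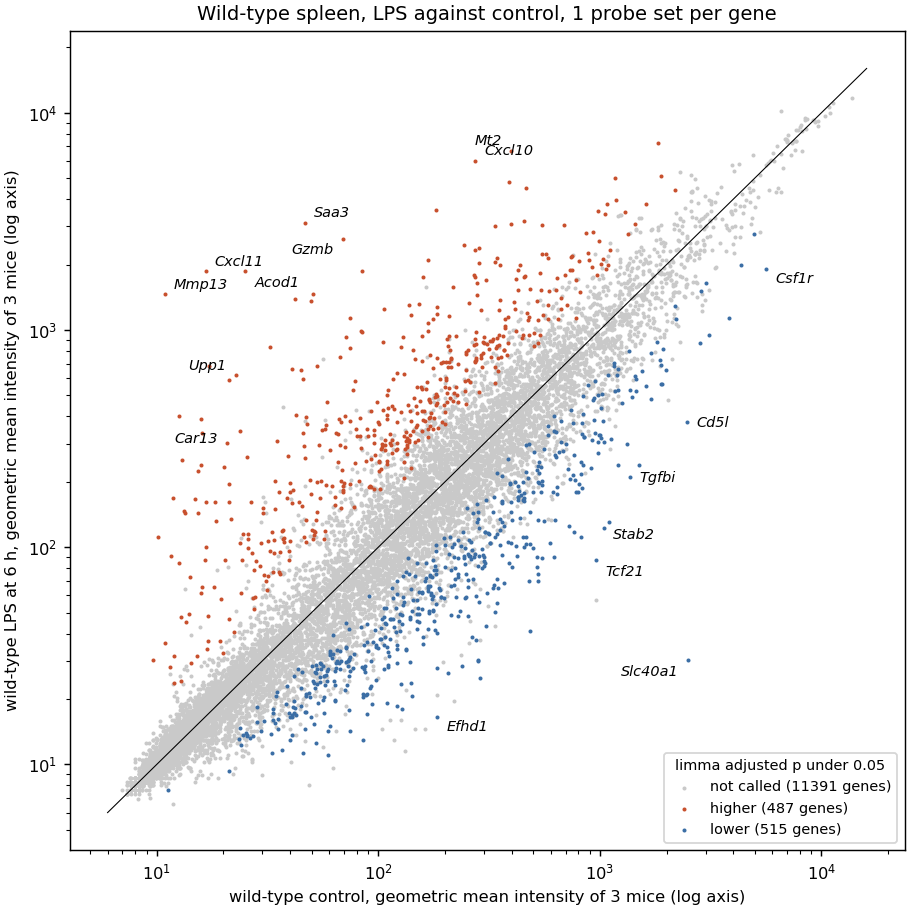
Geometric mean intensity of each of 12393 genes in 3 wild-type controls (horizontal, log axis) and 3 LPS mice (vertical, log axis), with 487 risen genes in red, 515 fallen genes in blue and a line of equality. The farthest points above the line are Mmp13, Cxcl11, Acod1 and Saa3, and the farthest below it is Slc40a1, the iron exporter.

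Several arrays carried signal that the groups do not explain. Pancreatic enzyme transcripts lay in control 1 alone, where the mean log2 intensity of 18 genes was 12.11 against 4.15 to 5.04 in the other 5 arrays. Red cell precursor genes averaged 9.36 in control 2 and 6.66 to 7.90 elsewhere, and neutrophil genes 7.92 in control 2 against 6.27 and 6.40 in the other controls and 7.13 to 7.41 after LPS. Liver genes ranged from 4.27 in control 1 to 7.70 in LPS 2. Xist read 2673, 35 and 47 in controls and 2127, 1101 and 1699 after LPS, and the Y-linked Eif2s3y 7, 316 and 53 against 8 in each LPS mouse, so controls 2 and 3 had a male pattern and the other 4 a female one. Of the knockout arrays, which entered the estimate of the spread, control 1 averaged 10.99 and control 3 8.12 over the pancreatic genes, against 4.43 to 4.86 in the rest. Knockout control 1 also averaged 10.56 over red cell precursor genes, against 6.10 to 7.62 in the other knockout arrays. Without it 1290 genes were called. The part of all these arrays in the results was not tested. The count of a list without 1 of these arrays is given beside each list described where it moved by over 1.5 times. Unless another setting is named, the loss of a call given beside a gene refers to 1 array left out. Losses without controls 2 and 3 together are counted in the last section. Ifit3 and the genes named after their values were seen were not followed singly through the alternative settings. The absence of a stated loss says nothing about their calls. The Dusp1 signal was no lower in the arrays labelled DUSP1-/- (677 to 1528 in controls and 2948 to 4996 after LPS) than in the wild type (479 to 1354 and 2116 to 2248), so it does not check the genotype labels.

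Cytokines, the messengers that start inflammation, rose in 7 of 22 measured genes and fell in 0 (4 rose without controls 2 and 3 together). The median log2 difference of the 22 was 0.65. Il6, which drives the acute phase response, read 13, 11 and 14 in controls and 603, 183 and 585 after LPS, and its rise was 4.99 ± 0.61, adjusted p = 0.00115. The neutrophil growth factor gene Csf3 read 16, 12 and 21 in controls and 391, 428 and 349 after LPS. Csf3 differed by 4.61 ± 0.31, adjusted p = 3.62e-05. Both went from the dimmest range in every control to a clear signal in every LPS mouse, with LPS 2 the lowest for Il6. Tnf, the early alarm cytokine, was already dimly measured before LPS at 70, 44 and 88 in controls and 272, 427 and 322 after LPS, and rose by 2.37 ± 0.29, adjusted p = 0.00112. Il1a rose (2.82 ± 0.45, adjusted p = 0.00495), with LPS 1 at 287 against 82 and 97. Il1b read 391, 448 and 171 in controls and 1742, 771 and 1046 after LPS, without overlap between the groups, but did not pass (1.85 ± 0.58, adjusted p = 0.0906). Hbegf, an epidermal growth factor receptor ligand, rose (2.24 ± 0.42, adjusted p = 0.0108). The call of Hbegf was lost without LPS 3 (adjusted p = 0.0605).

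The cytokines that steer lymphocytes changed in fewer genes, with 4 of 18 higher (22.2%) and 1 lower (5.56%), beside 3.93% and 4.16% of all genes. Ifng, the main activator of macrophages, read 14, 13 and 12 in controls and 229, 160 and 438 after LPS. Ifng differed by 4.28 ± 0.36, adjusted p = 0.000102. Il10, which restrains macrophages, read 12, 14 and 17 in controls and 79, 89 and 55 after LPS. Il10 differed by 2.36 ± 0.23, adjusted p = 0.000293. Il15, which sustains natural killer and memory T cells, rose (1.83 ± 0.24, adjusted p = 0.00169) together with the receptor chain that presents it, Il15ra (2.55 ± 0.32, adjusted p = 0.00138). Il7, the survival factor of naive lymphocytes made by stroma, read 53, 44 and 21 in controls and 12, 12 and 11 after LPS and fell (-1.65 ± 0.33, adjusted p = 0.0148). The call of Il7 was lost without LPS 2, LPS 3, control 1 or control 2 (adjusted p up to 0.0711). With dim values raised to a floor of 20 or 32 it was lost too (adjusted p = 0.216 and 0.235). The interferon gene Ifna1 stayed at the dim end of the scale, between 18 and 32 in all 6 mice. Its difference was 0.06 ± 0.26, adjusted p = 0.947.

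Chemokines gave the highest share of risen genes among the secreted factors. The genes for neutrophil attractants rose in 3 of 6: Cxcl2 read 16, 17 and 19 in controls and 819, 454 and 847 after LPS (5.30 ± 0.45, adjusted p = 0.000107) and Cxcl1 read 18, 60 and 68 in controls and 1141, 1312 and 1817 after LPS (5.06 ± 0.63, adjusted p = 0.00124), from the promoters printed above, and Cxcl5 rose too (4.39 ± 0.74, adjusted p = 0.00632). The 3 that did not pass were Ppbp (-0.11, adjusted p = 0.921), Pf4 (0.25, adjusted p = 0.826) and Ccl9 (0.21, adjusted p = 0.899). Ppbp and Pf4 are platelet proteins. Attractants of monocytes and lymphocytes rose in 13 of 19, and in 11 to 14 under each of the 25 alternatives. The Cxcr3 ligands were the brightest, with Cxcl10 at 207, 293 and 337 in controls and 6226, 5503 and 6386 after LPS (4.46 ± 0.43, adjusted p = 0.000268) and Cxcl11 at 22, 13 and 16 in controls and 2462, 1322 and 2004 after LPS. Cxcl11 differed by 6.81 ± 0.36, adjusted p = 6.52e-06. The monocyte attractant genes Ccl2 (4.69 ± 0.41, adjusted p = 0.000123), Ccl3 (4.79 ± 0.40, adjusted p = 9.69e-05) and Ccl12 (3.91 ± 0.23, adjusted p = 1.1e-05) rose from intensities of 14 to 39. Ccl22 rose (2.96 ± 0.53, adjusted p = 0.00802), while Ccl17, its neighbour in function as a ligand of Ccr4, read 36, 27 and 28 in controls and 668, 96 and 76 after LPS and did not pass (2.49 ± 0.76, adjusted p = 0.0824), with LPS 1 alone high.

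In the list of homeostatic chemokines and homing receptors, which place resting lymphocytes, 1 of 14 genes rose and 2 fell, with a median of -0.57 (1 fell without controls 2 and 3). Cxcl12, made by stroma and sinus cells, read 1682, 1781 and 2149 in controls and 974, 698 and 568 after LPS and fell (-1.35 ± 0.23, adjusted p = 0.00685), although the mean over its probe sets was not called. The integrin chain gene Itgb7 read 757, 388 and 720 in controls and 130, 101 and 89 after LPS and fell (-2.50 ± 0.44, adjusted p = 0.00731). Ccr7, which guides cells into T cell zones, read 413, 483 and 943 in controls and 2198, 2018 and 2502 after LPS and rose (1.96 ± 0.46, adjusted p = 0.0289). The call of Ccr7 was lost without LPS 1, LPS 2, LPS 3, control 1 or control 2 (adjusted p up to 0.119). Cxcl13, the attractant of B cell follicles, was higher without overlap at 1828, 1830 and 1477 in controls and 4328, 2540 and 2167 after LPS, and did not pass (0.76 ± 0.34, adjusted p = 0.265).

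**Figure D2:**
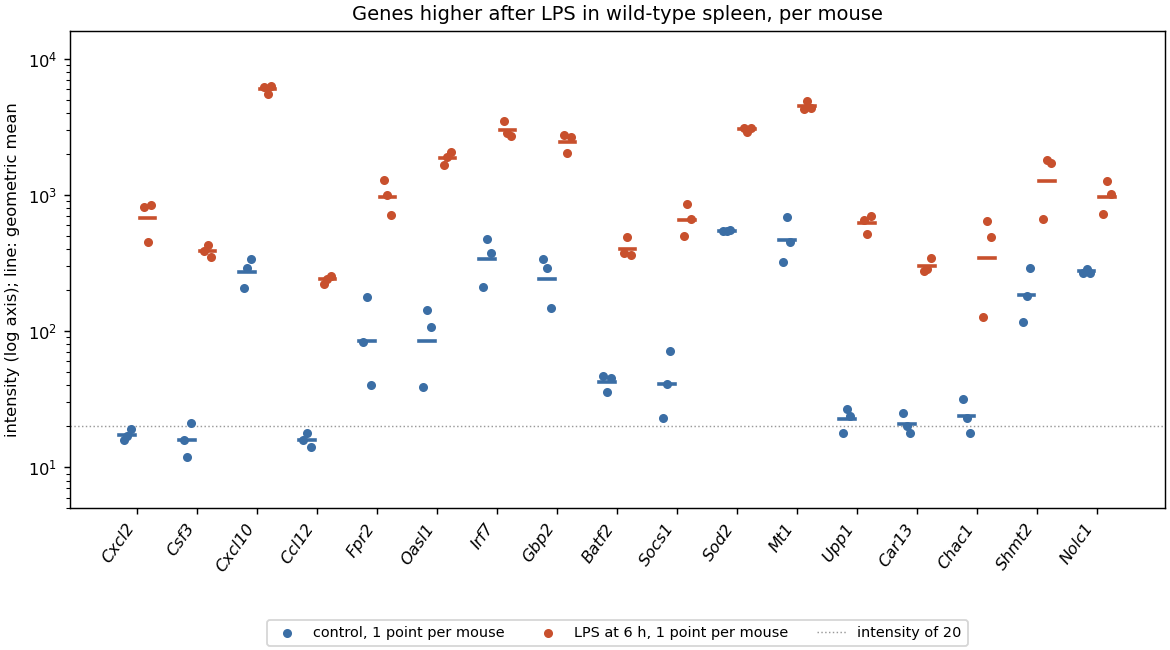
Intensity of 17 genes higher after LPS in each wild-type mouse (vertical, log axis), with 1 point per mouse, a line at the geometric mean of 3, and a dotted line at an intensity of 20. Groups without overlap were a condition for naming these genes. Among the LPS mice, Chac1 and Shmt2 are lowest in LPS 1.

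Recognition of LPS itself changed in few genes. Of 24 genes of the Toll-like receptor list 3 rose and 0 fell, with a median of 0.09. Cd14, the LPS co-receptor, read 256, 478 and 314 in controls and 2187, 1935 and 2081 after LPS. Cd14 differed by 2.61 ± 0.23, adjusted p = 0.000147. The adaptor gene Myd88 read 456, 429 and 554 in controls and 952, 967 and 919 after LPS (0.99 ± 0.24, adjusted p = 0.0345) and the inflammasome gene Nlrp3 rose by 0.93 ± 0.24, adjusted p = 0.0424; the first call was lost without knockout LPS 1, LPS 1, LPS 2, LPS 3, control 1 or control 2 (adjusted p up to 0.117) and the other without knockout LPS 1, knockout LPS 2, knockout LPS 3, knockout control 3, LPS 1, LPS 2, LPS 3, control 2 or control 3 (adjusted p up to 0.147). The list count was 1 without knockout LPS 1, LPS 1, LPS 2, LPS 3 or control 2. Among 35 receptor genes of myeloid cells 4 rose (11.4%) and 1 fell (2.86%), beside 3.93% and 4.16% of all genes. The fallen count was 3 without control 3 or knockout control 1 and 2 without LPS 1 or knockout control 3. The formyl peptide receptor gene Fpr2 read 84, 178 and 40 in controls and 1301, 996 and 714 after LPS (3.53 ± 0.44, adjusted p = 0.00129) and the chemerin-binding receptor gene Ccrl2 read 49, 111 and 75 in controls and 851, 835 and 797 after LPS. Ccrl2 differed by 3.48 ± 0.43, adjusted p = 0.00118. Il1r2, a decoy receptor for interleukin 1, rose (2.03 ± 0.52, adjusted p = 0.0427). The call of Il1r2 was lost without knockout LPS 1, knockout LPS 3, knockout control 3, LPS 1, LPS 2, LPS 3, control 1 or control 3 (adjusted p up to 0.144). Csf1r, the receptor that keeps macrophages alive, read 5521, 5670 and 5755 in controls and 1768, 2030 and 1942 after LPS and was the gene of the list that fell (-1.56 ± 0.20, adjusted p = 0.00146).

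Genes of the NF-kB pathway rose without a fall. Of 20 subunits and inhibitors 6 rose and 0 fell, with a median of 1.15, and 3 rose without LPS 3, control 1 or controls 2 and 3, and 13 without knockout control 1. Tnfaip3, a ubiquitin-editing inhibitor, read 111, 197 and 215 in controls and 1025, 911 and 1044 after LPS. Tnfaip3 differed by 2.57 ± 0.44, adjusted p = 0.00685. Nfkbiz, a nuclear cofactor of NF-kB, read 248, 332 and 203 in controls and 1137, 1264 and 1629 after LPS. Nfkbiz differed by 2.38 ± 0.33, adjusted p = 0.00218. Map3k8, a kinase that feeds the ERK pathway, rose (1.83 ± 0.36, adjusted p = 0.0136). The call of Map3k8 was lost without LPS 3 or control 1 (adjusted p up to 0.0662). Nfkbia, the main inhibitor, was bright in every mouse at 4644, 5115 and 4991 in controls and 6454, 6000 and 6647 after LPS and did not pass (0.37 ± 0.23, adjusted p = 0.46).

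Brakes on signalling rose in 12 of 26 genes and fell in 0, with a median of 1.38 (8 to 13 with any 1 array left out). Il1rn, the natural antagonist of interleukin 1, read 50, 49 and 50 in controls and 1792, 938 and 1502 after LPS. Il1rn differed by 4.78 ± 0.35, adjusted p = 5.29e-05. Socs1 read 23, 41 and 72 in controls and 498, 868 and 668 after LPS (4.02 ± 0.46, adjusted p = 0.000746) and Socs3, like Socs1 an inhibitor of cytokine receptors, read 134, 159 and 122 in controls and 1340, 1344 and 1249 after LPS. Socs3 differed by 3.25 ± 0.47, adjusted p = 0.00264. All LPS mice stood above all controls in these 3 genes, which was a condition for naming them. Usp18, which limits interferon receptor signalling, rose by 3.65 ± 0.42, adjusted p = 0.000746 and Atf3, a repressor of cytokine genes, by 3.71 ± 0.42, adjusted p = 0.000716. The mRNA-destabilising genes Zfp36 (0.63, adjusted p = 0.58), Zfp36l1 (-0.14, adjusted p = 0.842) and Zfp36l2 (-0.28, adjusted p = 0.822) did not pass.

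Among 34 early response transcription factors 10 rose and 3 fell, with 4 risen without LPS 2 or LPS 3, 5 without control 1 and 6 without control 2, and 1 fallen without LPS 2, LPS 3, control 2 or control 3. Batf2, an interferon-induced partner of Jun, read 47, 36 and 45 in controls and 374, 490 and 362 after LPS. Batf2 differed by 3.26 ± 0.23, adjusted p = 3.63e-05. Batf (2.69 ± 0.42, adjusted p = 0.00415), Maff (2.60 ± 0.35, adjusted p = 0.0018) and Ier3 (2.88 ± 0.49, adjusted p = 0.00652) rose as well. Klf4, which is expressed in endothelium and monocytes, read 113, 157 and 153 in controls and 36, 29 and 25 after LPS and fell (-2.23 ± 0.32, adjusted p = 0.00268). Klf10 and Mxd4 fell by 1.34 and 1.77 on the log2 scale, calls lost without LPS 2, LPS 3, control 2 or control 3 (adjusted p up to 0.113) and without knockout LPS 3, LPS 1, LPS 2, LPS 3, control 2 or control 3 (adjusted p up to 0.143).

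Interferon-stimulated genes, the cell's defence against viral replication, rose in most of the measured members. Antiviral effectors rose in 20 of 30 measured genes and fell in 0, 14 to 22 with any 1 array left out and 13 without controls 2 and 3. Their median was 2.15. Oasl1, which limits translation of Irf7, read 39, 143 and 107 in controls and 1658, 1918 and 2072 after LPS. Oasl1 differed by 4.48 ± 0.38, adjusted p = 0.000114. The dynamin-like restriction factor gene Mx1 read 35, 108 and 39 in controls and 1479, 313 and 693 after LPS (3.70 ± 0.64, adjusted p = 0.00696), with LPS 1 the highest. Oasl2 (3.57 ± 0.64, adjusted p = 0.00832), Ifit2 (3.69 ± 0.67, adjusted p = 0.00861) and the tetherin gene Bst2 (1.96 ± 0.34, adjusted p = 0.00721) rose as well. Ifit1, whose promoter is printed above, read 65, 203 and 23 in controls and 1863, 442 and 518 after LPS and was called (3.49 ± 0.86, adjusted p = 0.0363). The call of Ifit1 was lost without knockout LPS 1, LPS 1, LPS 2, LPS 3, control 1 or control 3 (adjusted p up to 0.0982). Ifit3 read 159, 333 and 66 in controls and 3390, 824 and 807 after LPS. Ifit3 differed by 3.11 ± 0.69, adjusted p = 0.0237, a call not followed through the alternative settings. Rsad2, Isg20 and Ifitm3, the brightest antiviral genes not called, differed by 1.47, 1.46 and 1.21. Rsad2 stood at 3230 in control 2 against 652 and 834 in the other controls.

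The guanylate-binding and immunity-related GTPases, which attack the vacuoles of intracellular microbes, rose in 7 of 10, with all 10 differences above 0 and a median of 2.10 (4 without LPS 1 or LPS 3, 3 without controls 2 and 3). Gbp2 read 338, 292 and 147 in controls and 2757, 2031 and 2691 after LPS (3.34 ± 0.36, adjusted p = 0.000521) and Igtp read 967, 591 and 565 in controls and 3586, 2406 and 3271 after LPS. Igtp differed by 2.15 ± 0.25, adjusted p = 0.000814. Iigp1 was uneven within both groups, at 586, 404 and 98 in controls and 4551, 1227 and 2423 after LPS (3.06 ± 0.67, adjusted p = 0.0222), and its call was lost without LPS 1 or LPS 3 (adjusted p up to 0.091). Gbp6 rose by 3.14 ± 0.82, adjusted p = 0.0475. The call of Gbp6 was lost without knockout LPS 1, knockout LPS 3, knockout control 2, knockout control 3, LPS 1, LPS 2, LPS 3, control 1, control 2 or control 3 (adjusted p up to 0.133). Of 18 IRF and STAT factors 4 rose and 0 fell (2 without LPS 2, 1 without LPS 3 or control 2). Irf7, the amplifier of type I interferon, read 211, 478 and 378 in controls and 3516, 2869 and 2731 after LPS. Irf7 differed by 3.17 ± 0.26, adjusted p = 9.51e-05. Stat2 (2.21 ± 0.52, adjusted p = 0.0291), Irf1 (1.70 ± 0.35, adjusted p = 0.0155) and Stat3 (1.12 ± 0.25, adjusted p = 0.025) rose, calls lost without LPS 1, LPS 2, LPS 3 or control 2 (adjusted p up to 0.104), without LPS 3 or control 2 (adjusted p up to 0.0753) and without LPS 2, LPS 3, control 1 or control 2 (adjusted p up to 0.109).

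**Figure D3:**
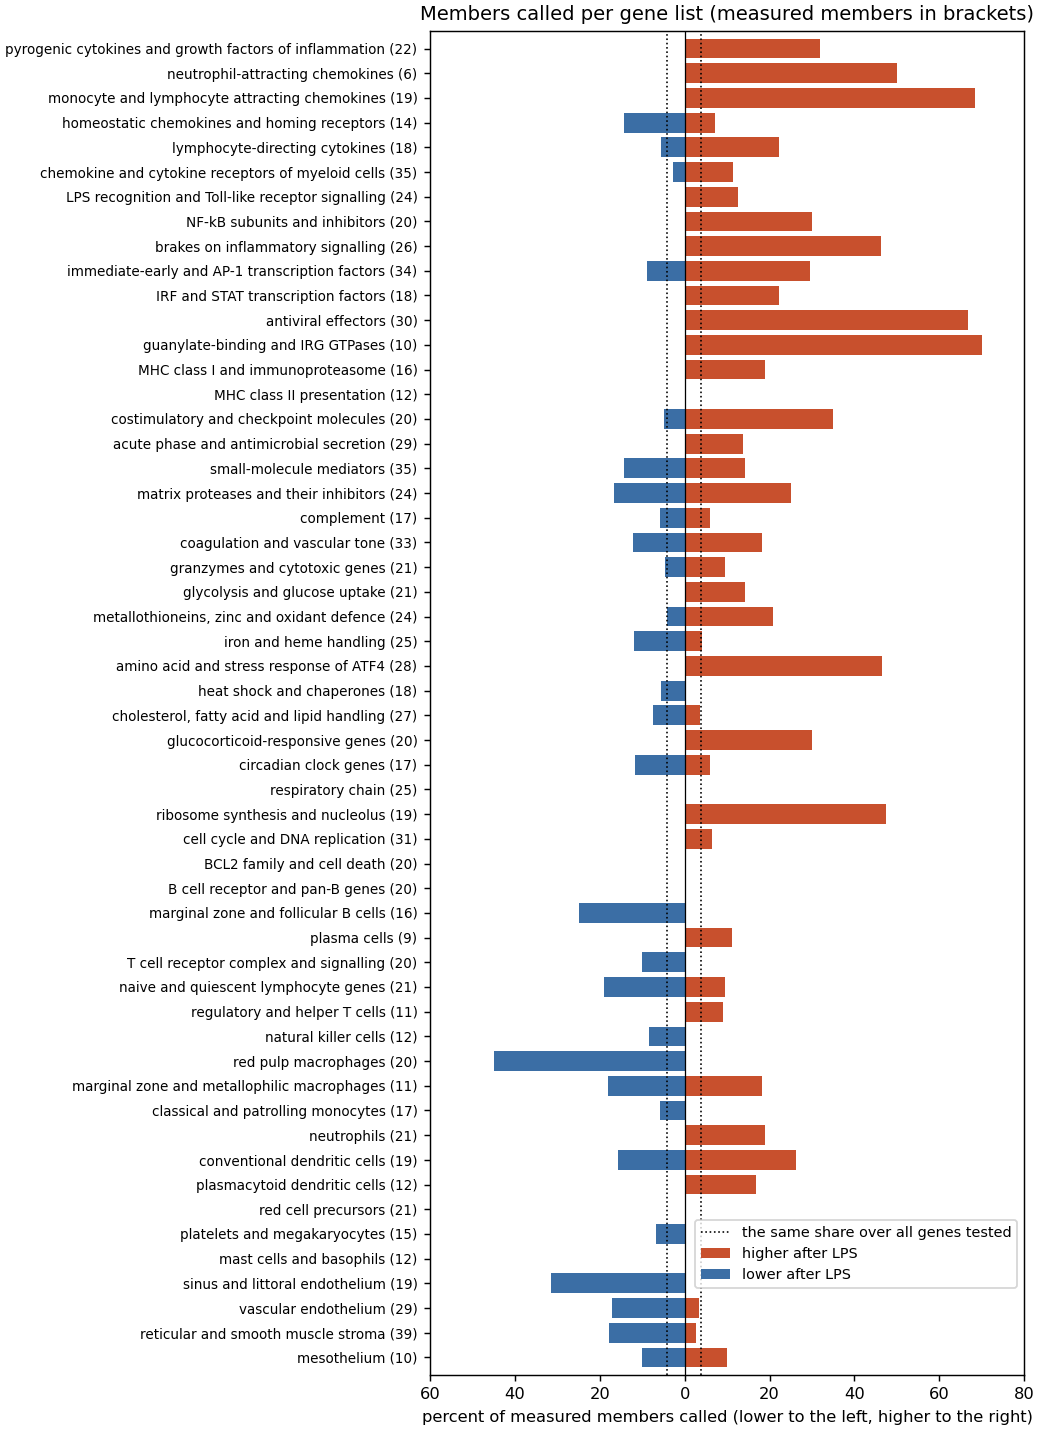
Share of measured members called higher (red, right) and lower (blue, left) after LPS in 54 gene lists, as percent of the measured members in brackets, with dotted lines at 3.93% and 4.16%, the shares over all genes. Monocyte and lymphocyte chemokines, antiviral effectors and GTPases reach 66.7% to 70.0% higher, and the largest share lower is 45.0% in red pulp macrophages.

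Surface molecules that tune T cell activation rose in several members. Of 20 costimulatory and checkpoint genes 7 rose and 1 fell, with a median of 1.11 (3 rose without controls 2 and 3). Cd40 read 222, 225 and 401 in controls and 1482, 1697 and 2126 after LPS (2.69 ± 0.41, adjusted p = 0.0037), and Tnfrsf9, the costimulator 4-1BB, read 95, 27 and 78 in controls and 542, 403 and 466 after LPS. Tnfrsf9 differed by 3.00 ± 0.41, adjusted p = 0.00198. Cd274, the inhibitory ligand PD-L1, read 221, 133 and 96 in controls and 1498, 754 and 1413 after LPS (3.05 ± 0.50, adjusted p = 0.0057), and Il2ra, the high-affinity interleukin 2 receptor chain, 24, 20 and 21 in controls and 94, 136 and 193 after LPS (2.65 ± 0.35, adjusted p = 0.0016). Pdcd1lg2, the other ligand of PD-1, rose (1.77 ± 0.31, adjusted p = 0.00704). Havcr2, also known as Tim-3, read 61, 111 and 33 in controls and 21, 11 and 15 after LPS and fell (adjusted p = 0.0249). It was the fallen gene of the list (5.00%, beside 4.16% of all genes). The call of Havcr2 was lost without LPS 2, LPS 3, control 1 or control 2 (adjusted p up to 0.102), and 2 genes of the list fell without LPS 1, knockout control 1 or knockout control 3.

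The MHC class I list rose in 3 of 16 genes, through the peptide-loading genes Tap1 (1.59 ± 0.34, adjusted p = 0.0185), Tapbp (1.01 ± 0.20, adjusted p = 0.0147) and Tapbpl (1.60 ± 0.35, adjusted p = 0.022). Their calls were lost without LPS 2, LPS 3, control 1 or control 2 (adjusted p up to 0.0763), without LPS 2, LPS 3 or control 2 (adjusted p up to 0.0659) and without LPS 2, LPS 3, control 1 or control 2 (adjusted p up to 0.083), and the list count was 0 without LPS 2, LPS 3 or control 2, 1 without control 1 and 7 without knockout control 1. The heavy chain gene H2-K1 and the light chain gene B2m, near the top of the intensity scale at 7112 to 9547, differed by 0.13 and 0.15 (adjusted p = 0.743 and 0.683). In MHC class II presentation 0 of 12 genes passed in the limma test, 3 had an unadjusted p under 0.05, all lower after LPS, and 2 were called with array quality weights. Their median was -0.41, with 11 of 12 differences below 0. H2-Eb1 read 5877, 5746 and 7210 in controls and 5017, 4210 and 3756 after LPS.

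Secreted defence proteins rose in 4 of 29 genes of the acute phase list and fell in 0, with a median of 1.10. Saa3, the serum amyloid made outside the liver, read 58, 45 and 39 in controls and 2883, 4120 and 2542 after LPS. Saa3 differed by 6.06 ± 0.41, adjusted p = 3.62e-05. Lcn2, which withholds iron from bacteria by binding siderophores, read 98, 487 and 129 in controls and 3472, 4595 and 2824 after LPS. Lcn2 differed by 4.28 ± 0.55, adjusted p = 0.00139. Chil1 (1.94 ± 0.34, adjusted p = 0.00751) and the pentraxin gene Ptx3 (1.74 ± 0.34, adjusted p = 0.0123) rose, the latter call lost without LPS 2 or control 2 (adjusted p up to 0.0583). With a floor of 20 or 32 the call of Ptx3 was lost too (adjusted p = 0.137 and 0.199). Fibrinogen beta chain, Fgb, read 8, 107 and 35 in controls and 154, 246 and 79 after LPS and did not pass (2.21 ± 1.38, adjusted p = 0.463). The liver list, which holds Fgb, had 0 of 20 genes called and 0 with an unadjusted p under 0.05, and its part in the acute phase values was not tested. Complement changed in 2 of 17 genes: factor B, Cfb, read 242, 245 and 366 in controls and 1828, 1516 and 1628 after LPS (2.57 ± 0.31, adjusted p = 0.000958), and Cd55, a surface inhibitor of complement, fell by 1.73 on the log2 scale (adjusted p = 0.0311). The call of Cd55 was lost without LPS 2, LPS 3, control 1 or control 2 (adjusted p up to 0.125). The mean over its probe sets was not called either (-1.69, adjusted p = 0.0504). In complement 5.88% of the genes rose and 5.88% fell, beside 3.93% and 4.16% of all genes. The complement counts were 3 higher without knockout control 1 and 2 lower without knockout LPS 2 or knockout control 2.

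Enzymes of lipid and small-molecule mediators moved both ways, with 5 of 35 genes higher and 5 lower (3 higher without LPS 1, 2 or 3, control 1, knockout LPS 1 or knockout LPS 3, and 1 lower without controls 2 and 3). Acod1, which makes itaconate in activated macrophages, read 28, 21 and 27 in controls and 2544, 1383 and 1871 after LPS. Acod1 differed by 6.22 ± 0.30, adjusted p = 6.32e-06. Ptgs2, the inducible cyclooxygenase, read 13, 8 and 10 in controls and 150, 65 and 142 after LPS and rose (3.46 ± 0.37, adjusted p = 0.000519). Ptges, a prostaglandin E2 synthase, read 33, 27 and 51 in controls and 168, 162 and 209 after LPS and rose (2.32 ± 0.34, adjusted p = 0.00282). Hpgd, which degrades prostaglandins, read 1220, 1442 and 752 in controls and 180, 106 and 119 after LPS and fell (-3.06 ± 0.36, adjusted p = 0.000814). Alox5ap, the partner of 5-lipoxygenase, read 643, 1019 and 900 in controls and 252, 291 and 185 after LPS and fell (-1.81 ± 0.30, adjusted p = 0.00605). The leukotriene synthesis genes Ltc4s (-1.65 ± 0.29, adjusted p = 0.0079) and Lta4h (-1.03 ± 0.17, adjusted p = 0.00595) fell too. These 3 calls were lost without controls 2 and 3 together, with adjusted p up to 0.124. Ch25h and Cybb rose by 1.96 and 1.41, and Tbxas1 fell by 1.13 on the log2 scale. Under each of 3 scalings the Tbxas1 call was lost (adjusted p = 0.0838 to 0.101). The Ch25h call was lost without knockout LPS 1, knockout LPS 3, LPS 1, LPS 2, LPS 3, control 1, control 2 or control 3 (adjusted p up to 0.151), that of Cybb without knockout LPS 1, knockout LPS 3, LPS 1, LPS 2, LPS 3, control 1 or control 3 (adjusted p up to 0.123) and that of Tbxas1 without knockout LPS 1, knockout LPS 3, knockout control 3, LPS 1, LPS 2, LPS 3, control 1, control 2 or control 3 (adjusted p up to 0.12).

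Matrix proteases and their inhibitors split by gene, with 6 of 24 higher and 4 lower (2 lower without knockout LPS 3, LPS 2, control 1 or control 2, and 1 without LPS 3). The collagenase gene Mmp13 read 10, 13 and 10 in controls and 1806, 798 and 2184 after LPS (7.07 ± 0.35, adjusted p = 6.32e-06), and the inhibitor gene Timp1 51, 38 and 67 in controls and 1555, 1172 and 1719 after LPS (4.85 ± 0.34, adjusted p = 3.63e-05). Stromelysin, Mmp3 (3.81 ± 0.41, adjusted p = 0.000543), the aggrecanase Adamts4 (3.88 ± 0.33, adjusted p = 0.000114) and the membrane protease Mmp14 (1.92 ± 0.34, adjusted p = 0.00734) rose. Timp2 read 1228, 1154 and 1654 in controls and 336, 285 and 277 after LPS and fell (-2.16 ± 0.21, adjusted p = 0.000249), opposite to Timp1, and Reck, a membrane inhibitor of matrix proteases, fell by 1.64 on the log2 scale (adjusted p = 0.0101). The call of Reck was lost without LPS 3 (adjusted p = 0.0577).

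Vessel genes also moved both ways, with 6 of 33 coagulation and tone genes higher and 4 lower (2 lower without LPS 3, control 2 or controls 2 and 3, and 3 higher without controls 2 and 3). Icam1, which binds rolling leukocytes, read 582, 454 and 624 in controls and 2162, 2294 and 2287 after LPS. Icam1 differed by 2.03 ± 0.27, adjusted p = 0.0016. The other endothelial adhesion gene of that kind, Vcam1, which red pulp macrophages also express, read 3707, 4516 and 3368 in controls and 1619, 781 and 1140 after LPS and fell (-1.76 ± 0.25, adjusted p = 0.00224). Vasoactive peptides rose, endothelin (Edn1) by 2.14 ± 0.32, adjusted p = 0.00317 and adrenomedullin (Adm) by 2.33 ± 0.40, adjusted p = 0.00685. On the anticoagulant surface, thrombomodulin, Thbd, read 253, 290 and 405 in controls and 61, 28 and 136 after LPS and fell (-2.33 ± 0.47, adjusted p = 0.0154), a call lost without control 2 (adjusted p = 0.05), while the protein C receptor gene Procr read 183, 139 and 185 in controls and 1160, 537 and 2014 after LPS and rose (2.69 ± 0.49, adjusted p = 0.0093). Aplnr, the apelin receptor gene of endothelium, read 105, 55 and 36 in controls and 12, 11 and 10 after LPS and fell (-2.43 ± 0.46, adjusted p = 0.0112). The call of Aplnr was lost without LPS 3 (adjusted p = 0.0566) and with a floor of 20 or 32 (adjusted p = 0.133 and 0.518).

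Metal binding and oxidant defence rose in 5 of 24 genes (20.8%) and fell in 1 (4.17%), beside 3.93% and 4.16% of all genes. The metallothionein genes Mt1, at 324, 690 and 451 in controls and 4260, 4950 and 4374 after LPS (3.28 ± 0.29, adjusted p = 0.000141), and Mt2, at 236, 810 and 329 in controls and 6939, 6702 and 6473 after LPS (4.07 ± 0.51, adjusted p = 0.00125), were among the brightest genes after LPS. Slc39a14, a zinc and iron importer, rose by 1.97 ± 0.35, adjusted p = 0.00776. The mitochondrial superoxide dismutase gene Sod2 had the tightest groups of these, at 543, 543 and 555 in controls and 3126, 2915 and 3117 after LPS. Sod2 differed by 2.48 ± 0.13, adjusted p = 6.52e-06. Hmox1, which breaks down heme, read 1721, 1372 and 1319 in controls and 577, 429 and 866 after LPS and fell (-1.29 ± 0.30, adjusted p = 0.0274). The call of Hmox1 was lost without LPS 1, LPS 2, control 1, control 2 or control 3 (adjusted p up to 0.11). It was lost too with every array shifted to 1 median (-1.17, adjusted p = 0.0641). Glycolysis rose in 3 of 21 genes and fell in 0, with 1 risen without LPS 2, LPS 3 or control 2. Hk2, the inducible hexokinase, read 133, 96 and 139 in controls and 415, 794 and 785 after LPS. Hk2 differed by 2.40 ± 0.33, adjusted p = 0.00198. Pfkfb3 and Pfkp rose by 2.16 and 1.40, calls lost without LPS 1, LPS 2, LPS 3, control 1 or control 2 (adjusted p up to 0.0884) and without LPS 2, LPS 3, control 2 or control 3 (adjusted p up to 0.118).

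Genes of the amino acid and stress response controlled by Atf4 rose in 13 of 28 and fell in 0, with a median of 1.21. The count was 6 without LPS 2, 5 without LPS 3, 6 without control 1, 7 without control 2 and 4 without controls 2 and 3. Shmt2, the mitochondrial serine hydroxymethyltransferase, read 117, 183 and 293 in controls and 668, 1807 and 1722 after LPS. Shmt2 differed by 2.79 ± 0.44, adjusted p = 0.00461. Chac1, which degrades glutathione, read 32, 23 and 18 in controls and 127, 647 and 494 after LPS (3.86 ± 0.65, adjusted p = 0.00639), and Trib3 rose (3.35 ± 0.62, adjusted p = 0.0099). The call of Trib3 was lost without LPS 3 (adjusted p = 0.0508). In Shmt2 and Chac1 LPS 1 was the lowest LPS mouse and still above every control. Gadd45b, a stress gene that NF-kB also induces, was more even at 259, 223 and 395 in controls and 1796, 2329 and 2003 after LPS (2.84 ± 0.36, adjusted p = 0.00138), and Cdkn1a, the cell cycle inhibitor p21, rose by 2.36 ± 0.29, adjusted p = 0.00129. The endoplasmic reticulum chaperone gene Hspa5 read 2162, 2171 and 1365 in controls and 2404, 1535 and 1852 after LPS. Hspa5 differed by 0.03 ± 0.36, adjusted p = 0.99.

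Ribosome synthesis genes rose in 9 of 19, and all 19 differences were above 0, with a median of 1.21. The count was 3 without LPS 2 or LPS 3, 4 without control 1 or control 2 and 1 without controls 2 and 3. Nolc1, a nucleolar scaffold, read 269, 288 and 269 in controls and 727, 1268 and 1013 after LPS (1.83 ± 0.22, adjusted p = 0.00113), and Rrp1b read 87, 103 and 130 in controls and 248, 528 and 606 after LPS. Rrp1b differed by 2.03 ± 0.36, adjusted p = 0.0079. Nop2, Rrs1 and Polr1b rose by 1.54, 1.64 and 1.49, calls lost without LPS 2, LPS 3, control 1 or control 2 (adjusted p up to 0.0798), without LPS 2, LPS 3, control 1 or control 2 (adjusted p up to 0.129) and without knockout LPS 1, knockout LPS 3, knockout control 3, LPS 2, LPS 3, control 1 or control 2 (adjusted p up to 0.175). Ncl and Npm1 were low in control 3 alone, at 561 and 682 against 2404 to 2729 in the other controls, and did not pass (1.10 and 0.30, adjusted p = 0.316 and 0.846).

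Of 31 cell cycle genes 2 rose (6.45%, beside 3.93% of all genes), with a median of -0.44 and 26 of 31 differences below 0. These were Ccnd2, the D-type cyclin of lymphocytes, at 1014, 1059 and 1521 in controls and 2891, 4442 and 4835 after LPS (1.75 ± 0.33, adjusted p = 0.00999), and Cdkn1a, given above; the Ccnd2 call was lost without LPS 3 (adjusted p = 0.0571). The respiratory chain had 0 of 25 genes called, with 2 at an unadjusted p under 0.05, and its median of -0.10 changed sign with the scaling. In the BCL2 family 0 of 20 genes passed the limma test and 5 had an unadjusted p under 0.05, 4 of them higher. Bcl2l11, which encodes the death protein Bim, read 127, 720 and 781 in controls and 947, 966 and 1109 after LPS (1.28 ± 0.55, adjusted p = 0.234), with control 1 alone low. The anti-apoptotic gene Mcl1 differed by -0.15 ± 0.21, adjusted p = 0.804.

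The arrays of the LPS group were not alike in which of these programmes stood highest. LPS 1 had the highest mean log2 intensity of the antiviral list, 10.58 against 9.97 and 9.92, and of the GTPase list, 10.90 against 9.58 and 10.09. It had the lowest mean of the Atf4 list, 8.32 against 8.93 and 8.97, and of the ribosome synthesis list, 9.20 against 9.58 and 9.67. Every LPS mouse was above every control in all 4 lists.

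**Figure D4:**
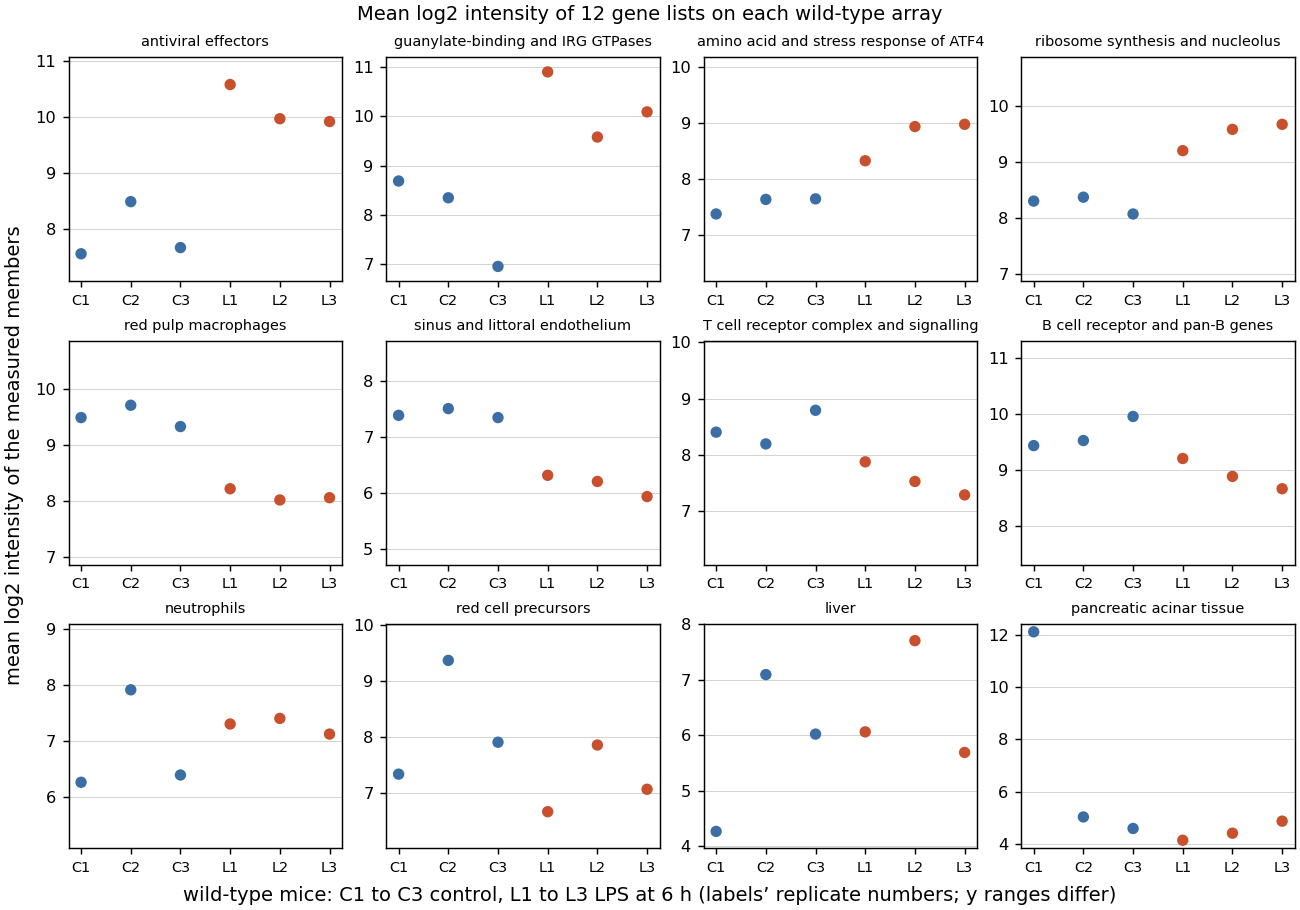
Mean log2 intensity (vertical, range set per panel) of 12 gene lists on each wild-type array, controls C1 to C3 in blue and LPS mice L1 to L3 in red. Red pulp macrophage means are 9.33 to 9.71 in controls and 8.02 to 8.22 after LPS, and pancreatic transcripts stand at 12.11 in control 1 alone.

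Among the lists of resident cells, red pulp macrophages had the largest share of fallen genes. In RNA from a whole spleen, fewer cells of a type and less RNA per cell cannot be told apart. Red pulp macrophage genes fell in 9 of 20 and rose in 0, with a median of -0.81 and 19 of 20 differences below 0; the count was 6 without control 1, 7 without controls 2 and 3 and 6 to 13 over the 25 alternatives. Slc40a1, the iron exporter ferroportin, read 3608, 2738 and 1580 in controls and 46, 25 and 24 after LPS, the largest fall of all called genes (-6.37 ± 0.62, adjusted p = 0.000268). Cd5l, a secreted macrophage survival factor, read 2534, 2486 and 2419 in controls and 286, 461 and 408 after LPS. Cd5l differed by -2.72 ± 0.23, adjusted p = 9.51e-05. In both genes every LPS mouse lay far below every control. Hpgd and Vcam1, given above, belong to this list too, and so do Cd163, the scavenger receptor for haemoglobin (-2.72 ± 0.41, adjusted p = 0.0037), and Pparg (-1.64 ± 0.28, adjusted p = 0.0065). Mrc1, the mannose receptor, read 733, 984 and 203 in controls and 90, 81 and 47 after LPS and fell (-2.91 ± 0.58, adjusted p = 0.0136). The call of Mrc1 was lost without LPS 3, control 1 or control 2 (adjusted p up to 0.0751). Clec4n, named after its values were seen, fell by 0.76 on the log2 scale (adjusted p = 0.0212), a call not followed through the alternatives.

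The list did not move as 1 block. Spic, the transcription factor that defines red pulp macrophages, read 497, 488 and 261 in controls and 915, 426 and 581 after LPS and did not pass (0.61 ± 0.51, adjusted p = 0.622). C1qb, a complement component made by tissue macrophages, read 2308, 3029 and 2767 in controls and 2196, 2396 and 2150 after LPS (-0.26 ± 0.24, adjusted p = 0.682), and C1qa differed by -0.57 ± 0.23, adjusted p = 0.21. Adgre1, the F4/80 antigen, read 592, 725 and 461 in controls and 448, 263 and 289 after LPS, without overlap between the groups, and its difference of -0.85 ± 0.24, adjusted p = 0.0607 did not pass. The iron and heme list, which shares Slc40a1, Cd163 and Hmox1 with it, had these 3 of 25 genes lower and 1, Lcn2, higher (2 higher without knockout control 1 or 2), with a median that changed sign with the scaling. Ferritin heavy chain, Fth1, read 4985, 7465 and 7724 in controls and 10354, 9859 and 10354 after LPS. Fth1 differed by 0.63 ± 0.23, adjusted p = 0.143.

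Marginal zone and metallophilic macrophage genes split, with 2 of 11 higher and 2 lower, each count 1 without LPS 2, LPS 3, control 2, knockout control 3 or any knockout LPS array, and the higher count 1 also without LPS 1, control 1 or control 3. Gpr84, a receptor for medium-chain fatty acids on activated macrophages, read 20, 18 and 17 in controls and 235, 160 and 111 after LPS (3.14 ± 0.32, adjusted p = 0.000407), and the scavenger receptor gene Marco read 947, 1304 and 1112 in controls and 2289, 2868 and 1946 after LPS. Marco differed by 1.07 ± 0.28, adjusted p = 0.0489. The call of Marco was lost without knockout LPS 1, knockout LPS 2, knockout LPS 3, knockout control 3, LPS 1, LPS 2, LPS 3, control 1, control 2 or control 3 (adjusted p up to 0.182). The lectin gene Cd209a fell by 2.02 on the log2 scale (adjusted p = 0.0401), a call lost without knockout LPS 1, knockout LPS 2, knockout LPS 3, knockout control 3, LPS 1, LPS 2, LPS 3, control 2 or control 3 (adjusted p up to 0.151), and the lectin gene Clec4g, also in the sinus list, is given with it. The metallophilic marker Siglec1 was dim in every mouse, at 20 to 33, and differed by 0.10 (adjusted p = 0.889). Cd209b, a further defining marker of the list, was measured and did not pass. Of 17 monocyte genes 1 fell (5.88%, beside 4.16% of all genes), Csf1r, given above, and 0 rose. Without control 3 the fallen count was 3, and without control 1, knockout control 2 or knockout control 3 it was 2. Ccr2 read 31, 47 and 17 in controls and 18, 13 and 14 after LPS and Lyz2 5873, 6560 and 6770 in controls and 4965, 4364 and 4267 after LPS, and neither passed (-0.97 and -0.50, adjusted p = 0.121 and 0.161).

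**Figure D5:**
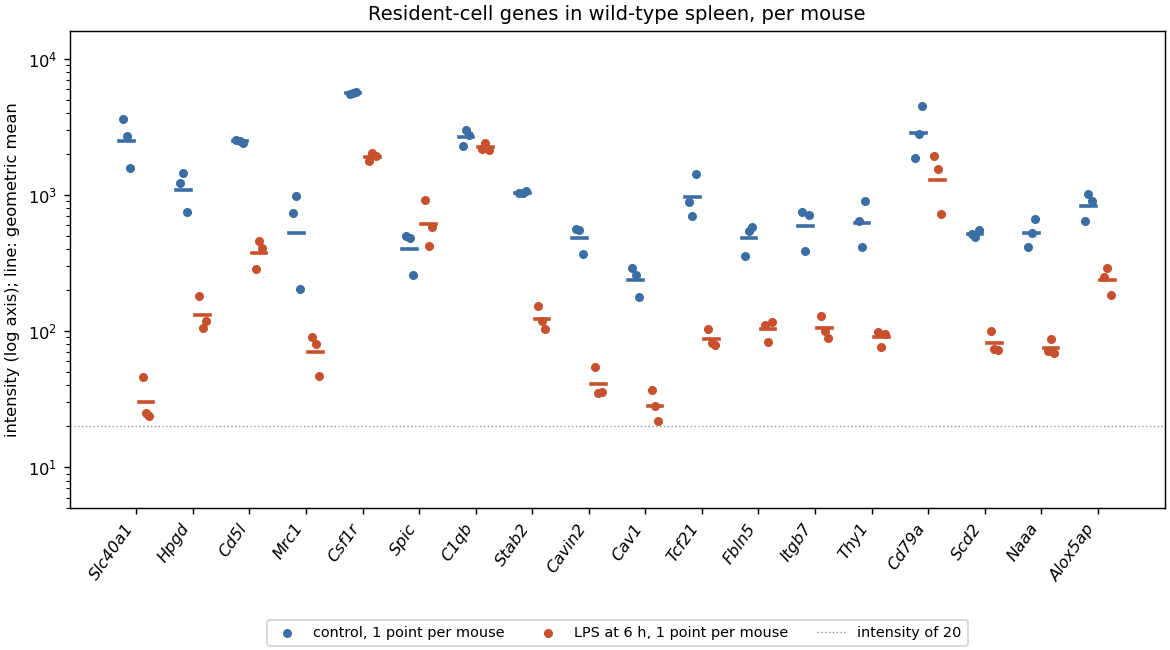
Intensity of 18 genes of resident cells and their enzymes in each wild-type mouse (vertical, log axis), with 1 point per mouse, a line at the geometric mean of 3 and a dotted line at an intensity of 20. Slc40a1 drops from 1580 to 3608 in controls to 24 to 46 after LPS, whereas Spic overlaps between the groups and C1qb differs by -0.26 on the log2 scale.

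Of 19 genes of the sinus endothelium, which lines the venous spaces of the red pulp, 6 fell, 0 rose and 13 did not pass. The median was -0.74, and 5 to 7 fell under each of the 25 alternatives. Lyve1, Fabp4 and Fcgr2b were higher without overlap of the groups, by 1.01, 0.87 and 0.53 (adjusted p = 0.232, 0.164 and 0.538), the last 2 named after their values were seen. Stab2, the scavenger receptor of sinus lining cells, read 1033, 1030 and 1065 in controls and 152, 118 and 104 after LPS. Stab2 differed by -3.08 ± 0.28, adjusted p = 0.000147. Cavin2, which encodes a coat protein of caveolae, read 564, 555 and 367 in controls and 55, 35 and 36 after LPS and fell (-3.56 ± 0.25, adjusted p = 3.63e-05). The caveolin genes Cav1, at 293, 259 and 177 in controls and 37, 28 and 22 after LPS (-3.07 ± 0.32, adjusted p = 0.000467), and Cav2, named after its values were seen, at 139, 188 and 81 in controls and 30, 15 and 13 after LPS (-2.83 ± 0.41, adjusted p = 0.00287), fell too. Clec4g read 382, 118 and 197 in controls and 27, 31 and 22 after LPS. Clec4g differed by -2.97 ± 0.45, adjusted p = 0.00358. All LPS mice lay below all controls in these 5 genes, and apart from Cav2 they were ranked only among genes without overlap. Mrc1 is shared with the red pulp list. Stab1 read 122, 92 and 147 in controls and 122, 88 and 88 after LPS (-0.27 ± 0.25, adjusted p = 0.68) and Plvap 637, 1014 and 1554 in controls and 416, 584 and 440 after LPS (-1.08 ± 0.37, adjusted p = 0.126), and neither passed. Lyve1, a defining marker of this lining, was at 12 and 13 in controls and 18 to 42 after LPS, too dim to read a loss.

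Vascular endothelium fell in 5 of 29 genes and rose in 1 (2 rose without control 3, knockout LPS 2, knockout control 1 or knockout control 3), with 3 fallen without control 3 or knockout LPS 3, 2 without LPS 1, LPS 2 or control 1, and 1 without LPS 3 or control 2. Klf4 is given above. Nrp1, a co-receptor for VEGF, read 418, 283 and 130 in controls and 93, 72 and 31 after LPS and fell (-2.07 ± 0.48, adjusted p = 0.0273). The call of Nrp1 was lost without LPS 2, LPS 3, control 1 or control 2 (adjusted p up to 0.114). Sox18 and Tek fell by 1.68 and 1.55 on the log2 scale, calls lost without LPS 1, LPS 3, control 2 or control 3 (adjusted p up to 0.137) and without knockout LPS 3, LPS 1, LPS 2, LPS 3, control 1 or control 2 (adjusted p up to 0.112). Tek was dim, and with a floor of 20 its difference was -0.73, adjusted p = 0.432. The arterial connexin gene Gja4 read 42, 30 and 78 in controls and 289, 292 and 298 after LPS and rose (2.67 ± 0.44, adjusted p = 0.00577). It was the risen gene of the list (3.45%, beside 3.93% of all genes). Cdh5, the adhesion molecule of all endothelium, read 36, 47 and 76 in controls and 146, 113 and 128 after LPS, higher in 3 of 3 LPS mice, and missed the threshold (1.35 ± 0.36, adjusted p = 0.051), and Pecam1 differed by -0.37 ± 0.45, adjusted p = 0.765. 

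Stroma fell in 7 of 39 genes and rose in 1, with a median of -0.64 (4 fell without LPS 3, 3 without controls 2 and 3). Tcf21, a mesenchymal transcription factor, read 895, 702 and 1431 in controls and 103, 82 and 79 after LPS (-3.47 ± 0.28, adjusted p = 9.51e-05), and Tlx1, which is needed for the spleen to form, read 90, 64 and 162 in controls and 36, 35 and 35 after LPS. Tlx1 differed by -1.47 ± 0.29, adjusted p = 0.0136. The call of Tlx1 was lost without LPS 2 or LPS 3 (adjusted p up to 0.0614). Fbln5, an organiser of elastic fibres, read 359, 544 and 580 in controls and 111, 84 and 116 after LPS and fell (-2.24 ± 0.26, adjusted p = 0.000814). Of other matrix genes in the list, Tnxb fell by 2.31, Col14a1 by 2.09 and Col1a2 by 1.43 on the log2 scale (adjusted p = 0.00861, 0.00505 and 0.0109). The calls of Tnxb and Col1a2 were lost without LPS 3 (adjusted p = 0.0502 and 0.0562). Col4a1, a basement membrane collagen, read 401, 590 and 678 in controls and 1675, 1510 and 1417 after LPS and rose (1.49 ± 0.26, adjusted p = 0.00685). It was the risen gene of the list (2.56%, beside 3.93% of all genes). The contractile gene Acta2 read 1492, 990 and 1312 in controls and 1043, 677 and 830 after LPS. Acta2 differed by -0.58 ± 0.30, adjusted p = 0.35. Aldh1a2, an enzyme of retinoic acid synthesis listed under mesothelium, read 17, 11 and 13 in controls and 164, 170 and 107 after LPS (3.42 ± 0.28, adjusted p = 9.51e-05), while the mesothelial markers Msln and Upk3b stayed between 14 and 44.

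Lymphocyte genes were lower after LPS in most members, and few passed the test. Of 20 B cell genes 0 passed the limma test, 9 had an unadjusted p under 0.05, all lower, and 4 were called with array quality weights. Their median was -0.77 with 19 of 20 below 0, and their mean log2 intensity was 9.44 to 9.96 in controls and 8.67 to 9.21 after LPS. Cd79a, a chain of the B cell receptor, read 1882, 2811 and 4499 in controls and 1950, 1546 and 730 after LPS. Cd79a differed by -1.14 ± 0.56, adjusted p = 0.312. Cd79b read 2680, 2610 and 3828 in controls and 1927, 1200 and 1112 after LPS, without overlap (-1.13 ± 0.40, adjusted p = 0.136). Ighm, the IgM heavy chain, was near the top of the intensity scale at 15228, 13246 and 12900 in controls and 11612, 11032 and 12418 after LPS. Ighm differed by -0.24 ± 0.16, adjusted p = 0.504. In the marginal zone and follicular list 4 of 16 genes fell (1 without LPS 2 or LPS 3, 2 without control 1, 2 or 3, and 0 without controls 2 and 3). Tm6sf1 read 453, 781 and 702 in controls and 232, 87 and 116 after LPS. Tm6sf1 differed by -2.24 ± 0.35, adjusted p = 0.00413. Cd1d1, which presents lipids and is high on marginal zone B cells, read 623, 627 and 681 in controls and 402, 122 and 140 after LPS (-1.76 ± 0.41, adjusted p = 0.0292), and Hhex, a transcription factor, fell by 1.44 on the log2 scale (adjusted p = 0.0287), calls lost without LPS 2, LPS 3, control 1, control 2 or control 3 (adjusted p up to 0.136) and without LPS 1, LPS 2, LPS 3 or control 3 (adjusted p up to 0.116). Cd55 is the other. The defining markers Cr2 (-1.19, adjusted p = 0.245) and Fcer2a (-1.25, adjusted p = 0.163) did not pass.

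Of 20 T cell receptor and signalling genes 2 fell and 0 rose, 9 had an unadjusted p under 0.05, all lower, and the median was -0.78 with 19 of 20 below 0. The count of called genes was 0 without LPS 2, LPS 3, control 1 or controls 2 and 3 together, 1 without control 2 or control 3 and 7 without knockout control 1. Thy1, a surface glycoprotein of T cells, read 646, 417 and 898 in controls and 99, 77 and 96 after LPS (-2.79 ± 0.62, adjusted p = 0.0225) and Cd3g, a chain of the receptor complex, 375, 450 and 434 in controls and 170, 85 and 72 after LPS (-2.05 ± 0.44, adjusted p = 0.0204). Their calls were lost without LPS 2, LPS 3, control 1 or control 3 (adjusted p up to 0.0855) and without LPS 2, LPS 3, control 1, control 2 or control 3 (adjusted p up to 0.106). Cd3d and Cd3e differed by -1.11 and -1.08 (adjusted p = 0.208 and 0.154). Gimap4 and Gimap6, GTPases of lymphocytes, differed by -0.06 and -0.07, so the members of the list were spread widely.

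Genes of quiescent lymphocytes fell in 4 of 21 and rose in 2 (2 fell without LPS 3 and 0 without controls 2 and 3). Rasgrp2, which activates Rap1 and integrins in lymphocytes and platelets, read 569, 684 and 988 in controls and 188, 122 and 85 after LPS. Rasgrp2 differed by -2.54 ± 0.46, adjusted p = 0.00908. Ypel3 read 806, 918 and 1259 in controls and 277, 325 and 222 after LPS (-1.85 ± 0.25, adjusted p = 0.00207), and Tob1, an antiproliferative gene, fell by 2.15 on the log2 scale (adjusted p = 0.00793). The Rasgrp2 call was lost without LPS 3 (adjusted p = 0.0525). Klf2, which holds naive T cells quiescent and keeps vessels anticoagulant, read 1534, 2181 and 3693 in controls and 1097, 1049 and 603 after LPS, without overlap, and did not pass (-1.38 ± 0.51, adjusted p = 0.153). The rises were Ccr7, given above, and Slfn2 (1.36 ± 0.35, adjusted p = 0.0454). The call of Slfn2 was lost without knockout LPS 1, knockout LPS 3, knockout control 3, LPS 1, LPS 2, LPS 3, control 1, control 2 or control 3 (adjusted p up to 0.154). Of 9 plasma cell genes 1 rose (11.1%, beside 3.93% of all genes), Prdm1 (1.04 ± 0.24, adjusted p = 0.0289), a call lost without LPS 1, LPS 3, control 1 or control 2 (adjusted p up to 0.133). The J chain gene Jchain read 7159, 5610 and 3659 in controls and 3485, 2080 and 3132 after LPS. Jchain differed by -0.90 ± 0.40, adjusted p = 0.252. Of 11 regulatory and helper T cell genes 1 rose (9.09%), Il2ra, given above (2 without LPS 1), and Foxp3 stayed between 13 and 17.

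Of 21 cytotoxic genes 2 rose (9.52%) and 1 fell (4.76%), beside 3.93% and 4.16% of all genes. The risen count was 1 without LPS 1, LPS 3, control 1 or control 2. Gzmb, the apoptosis-inducing granzyme, read 42, 62 and 127 in controls and 2444, 2392 and 3070 after LPS. Gzmb differed by 5.24 ± 0.36, adjusted p = 3.63e-05. Klrd1, the CD94 receptor chain, read 374, 409 and 271 in controls and 175, 33 and 47 after LPS and fell (-2.42 ± 0.50, adjusted p = 0.0161), a call lost without LPS 2, LPS 3, control 1 or control 2 (adjusted p up to 0.0865). It was the gene of 12 in the natural killer list that passed (8.33%, beside 4.16% of all genes). Without control 3 the fallen count was 3 in each of these lists, and without knockout control 1 or 2 it was 2. Gzmc, named after its values were seen, rose by 0.99 (adjusted p = 0.0202), a call not followed through the alternative settings. Gzma read 570, 758 and 717 in controls and 1778, 1188 and 1404 after LPS, with all LPS mice above all controls, and did not pass (1.09 ± 0.34, adjusted p = 0.0911), and the natural killer receptor gene Ncr1 differed by -0.40 ± 0.19, adjusted p = 0.288.

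Dendritic cell genes moved in both directions, with 5 of 19 higher and 3 lower. The risen members were Ccr7, Ccl22 and Batf3, with Fscn1 and Ly75, and the count was 1 without LPS 1, LPS 2, LPS 3 or control 2, 2 without control 1, 3 without control 3 and 0 without controls 2 and 3. Fscn1, the actin bundler of mature dendritic cells, read 722, 254 and 340 in controls and 3154, 3034 and 3000 after LPS. Fscn1 differed by 2.95 ± 0.76, adjusted p = 0.0441. The call of Fscn1 was lost without knockout LPS 1, knockout LPS 2, knockout LPS 3, knockout control 2, LPS 1, LPS 2, LPS 3, control 1, control 2 or control 3 (adjusted p up to 0.15). Ly75, the endocytic receptor DEC-205, rose by 1.09 ± 0.26, adjusted p = 0.0325, and Batf3, required for cross-presenting dendritic cells, by 1.40 ± 0.33, adjusted p = 0.0319, calls lost without LPS 1, LPS 2, LPS 3, control 2 or control 3 (adjusted p up to 0.0993) and without LPS 1, LPS 2, LPS 3, control 1 or control 2 (adjusted p up to 0.12). Itgax, the CD11c integrin, read 473, 390 and 536 in controls and 130, 100 and 86 after LPS and fell (-2.16 ± 0.35, adjusted p = 0.00495), Itgae fell by 0.87 on the log2 scale (adjusted p = 0.0207), a call lost without LPS 1, LPS 2, LPS 3, control 2 or control 3 (adjusted p up to 0.0822) and under 3 scalings, and Naaa, a lysosomal amidase of dendritic cells, read 416, 525 and 673 in controls and 71, 87 and 69 after LPS and fell (-2.81 ± 0.32, adjusted p = 0.000741). Flt3, the growth factor receptor of these cells, read 228, 202 and 250 in controls and 196, 178 and 153 after LPS. Flt3 differed by -0.37 ± 0.21, adjusted p = 0.41. In the plasmacytoid list 2 of 12 rose, Irf7 and the defining marker Bst2, both also interferon-stimulated. Of the 2 defining markers measured, the other did not pass. Tcf4, a member not among the defining markers, differed by -0.43 ± 0.46, adjusted p = 0.725.

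Neutrophil genes rose in 4 of 21 and fell in 0, through Lcn2, Fpr2, Il1r2 and Trem1 (1.56 ± 0.28, adjusted p = 0.00829), while the defining markers did not pass. S100a8 read 1782, 4777 and 1753 in controls and 3269, 2868 and 1968 after LPS (0.10 ± 0.40, adjusted p = 0.941), S100a9 1548, 5275 and 916 in controls and 3042, 1636 and 1176 after LPS (-0.12 ± 0.60, adjusted p = 0.953) and Csf3r 152, 877 and 298 in controls and 242, 355 and 266 after LPS (-0.27 ± 0.50, adjusted p = 0.871). Control 2 was the highest mouse for all 3 markers, and its part in these values was not tested. The list median of -0.02 changed sign with the scaling. In red cell precursors 0 of 21 genes passed and 0 had an unadjusted p under 0.05, with a median of -0.90 and 20 of 21 differences below 0. The defining gene Hba-a1 was under 20 in all 6 mice. Klf1, the master factor of red cell genes, read 171, 1389 and 400 in controls and 52, 434 and 111 after LPS, so the groups overlapped. Of the platelet genes 1 of 15 fell (6.67%, beside 4.16% of all genes), Rasgrp2 (2 without control 3 or knockout LPS 2). The defining genes Itga2b, Gp9 and Pf4 differed by -0.02, 0.21 and 0.25. Mast cell markers Cpa3, Mcpt8, Fcer1a and Ms4a2 stayed under 20 in all 6 mice, and 0 of 12 genes were called (1 with an unadjusted p under 0.05).

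Lipid genes fell in 2 of 27 (7.41%) and rose in 1 (3.70%), beside 4.16% and 3.93% of all genes (4 fell without LPS 1). Scd2, a stearoyl-CoA desaturase, read 519, 490 and 555 in controls and 100, 74 and 73 after LPS and fell (-2.68 ± 0.22, adjusted p = 9.32e-05), and Pparg is the other; Hilpda, which blocks lipolysis at lipid droplets, read 50, 58 and 97 in controls and 263, 338 and 410 after LPS and rose (2.34 ± 0.36, adjusted p = 0.00388). The close relative Scd1 read 1514, 2168 and 2499 in controls and 1815, 1594 and 1817 after LPS. Scd1 differed by -0.21 ± 0.30, adjusted p = 0.809. Glucocorticoid-responsive genes rose in 6 of 20 and fell in 0, and these included Mt1, Mt2, Lcn2 and Cdkn1a, which other lists hold too. The classical members Tsc22d3, at 410, 2226 and 2564 in controls and 1337, 1061 and 849 after LPS, and Ddit4, at 1024, 2320 and 2286 in controls and 1277, 1122 and 920 after LPS, did not pass (-0.32 and -0.68), with control 1 low for both. Of 18 heat shock genes 1 fell (5.56%, beside 4.16% of all genes), Hsph1 (-1.49 ± 0.34, adjusted p = 0.0273), with 3 fallen without control 1 or knockout control 1 and 2 without knockout control 2. The call of Hsph1 was lost without LPS 1, LPS 3, control 2 or control 3 (adjusted p up to 0.129). The mean over its probe sets was not called either (-1.36, adjusted p = 0.1). Among 17 clock genes Nfil3 rose (2.16 ± 0.27, adjusted p = 0.00138) and Per3 and Arntl fell (-1.38 ± 0.36, adjusted p = 0.0434 and -0.82 ± 0.18, adjusted p = 0.0236), calls lost without knockout LPS 1, knockout LPS 2, knockout LPS 3, knockout control 3, LPS 1, LPS 2, LPS 3, control 1, control 2 or control 3 (adjusted p up to 0.163) and without LPS 2, LPS 3 or control 2 (adjusted p up to 0.103). The mean over the probe sets of Per3 differed by -0.47 and was not called (adjusted p = 0.266). Of the clock list 5.88% rose and 11.8% fell, beside 3.93% and 4.16% of all genes.

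Outside all lists the largest rises included Upp1, uridine phosphorylase, at 18, 27 and 24 in controls and 660, 516 and 700 after LPS (4.77 ± 0.27, adjusted p = 9.27e-06), and Car13, a cytosolic carbonic anhydrase, at 25, 20 and 18 in controls and 276, 287 and 344 after LPS. Car13 differed by 3.85 ± 0.19, adjusted p = 6.32e-06. Ms4a6d (3.93 ± 0.49, adjusted p = 0.00127), the endothelial lipase gene Lipg (3.28 ± 0.26, adjusted p = 8.99e-05), the phospholipid scramblase gene Plscr1 (2.76 ± 0.33, adjusted p = 0.00106) and Marcksl1 (2.80 ± 0.37, adjusted p = 0.00159) rose. Groups without overlap were a condition for naming each of them. Nts, the neuropeptide neurotensin, read 23, 13 and 12 in controls and 307, 72 and 132 after LPS. Nts differed by 3.22 ± 0.51, adjusted p = 0.00453. Bcat1, which transfers amino groups from branched amino acids, and the neutral amino acid transporter gene Slc1a4 were lowest in LPS 1 among LPS mice, at 71 against 322 and 328 and at 68 against 277 and 220 (3.22 ± 0.50, adjusted p = 0.00413 and 2.91 ± 0.52, adjusted p = 0.00817). Mir155hg, the host gene of a microRNA of activated immune cells, read 13, 18 and 14 in controls and 181, 93 and 279 after LPS. Mir155hg differed by 3.50 ± 0.88, adjusted p = 0.0401. The call of Mir155hg was lost without knockout LPS 3, knockout control 3, LPS 1, LPS 2, LPS 3, control 1, control 2 or control 3 (adjusted p up to 0.169).

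The largest falls outside the lists were led by Abcg3, at 477, 434 and 117 in controls and 44, 16 and 22 after LPS (-3.54 ± 0.54, adjusted p = 0.00397), and Efhd1, a calcium-binding protein of mitochondria, at 147, 178 and 241 in controls and 16, 22 and 13 after LPS. Efhd1 differed by -3.48 ± 0.44, adjusted p = 0.00134. Lipa, the lysosomal acid lipase, read 1241, 647 and 559 in controls and 149, 120 and 90 after LPS (-2.71 ± 0.34, adjusted p = 0.00138), and Tgfbi, a secreted adhesion protein, 1239, 1441 and 1427 in controls and 239, 259 and 152 after LPS (-2.69 ± 0.29, adjusted p = 0.000486). The brain-type creatine kinase gene Ckb (-2.74 ± 0.24, adjusted p = 0.000115), Hip1 (-2.73 ± 0.20, adjusted p = 5.66e-05), Cadm1 (-2.78 ± 0.34, adjusted p = 0.00112) and Adcy7, the adenylyl cyclase of blood cells (-2.64 ± 0.38, adjusted p = 0.00264), fell as well. Groups without overlap were a condition for naming these 8 genes too. Each of the 8 was called under all 25 alternatives.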

How the data were processed

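Total spleen RNA was hybridised to 12 arrays, 1 per mouse. The authors made the deposited values with RMA from the R affy package, per the series' design text and the submitters' processing notes; the version is not given in the sources used here. The deposited intensity of each probe set is on a linear scale, rounded to whole numbers from 6 to 15228, and 30.84% of values lay under 20. Medians of the wild-type arrays were 47 to 57. Deposited values were log2-transformed with no further scaling.

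Of 22690 probe sets 64 controls were left out. GEO's annotation named a single gene for 20380 of those left, several for 691 and none for 1555. Each gene was read from its brightest probe set (mean log2 of all arrays), with sets ending in _x_at used only where there was no other. Of 715 other probe sets of the called genes 91.3% had the same sign. A model with 4 group means was fitted with limma 3.58.1 in R 4.3.3 (lmFit, eBayes; 8 residual and 2.722 prior degrees of freedom), two-sided, with Benjamini-Hochberg adjustment over 22626 probe sets and a threshold of 0.05. Values after ± are standard errors of log2 differences between groups of 3 mice. Replicate wild-type arrays correlated at 0.938 to 0.986 and replicate knockout arrays at 0.909 to 0.989, over probe sets, which do not vary independently.

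In simulated data with the mean and spread of each probe set, 67, 67 and 66 of 22626 probe sets were changed by 1, 2 and 4 on the log2 scale. Of these limma called 32.8%, 86.6% and 100%, with 10 false calls among the unchanged probe sets. The simulated noise was normal and independent, and no array was aberrant, so the rates need not hold for the real comparison. The 59 gene lists (1041 distinct genes measured), the members and the alternatives were chosen with earlier results of these data known, so the lists describe and support nothing. Genes were named by rule: per list up to 5 risen and 5 fallen without overlap of the groups and with the brighter group above the 40th percentile (30.49), up to 3 bright members that did not pass, the defining markers, and outside the lists the 15 largest rises and falls. Other names are said to be chosen after their values were seen. The text gives a selection of these genes.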

Additional observations from a re-analysis of the deposited data

How the results depend on the processing

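Of 207 named genes that were called, 106 kept the call under all 25 alternatives, and no call shared with the reported fit had the other sign. The 1002 calls (487 higher, 515 lower) became 1890 (850 and 1040) with array quality weights and 617 (323 and 294) with a floor of 32. Leaving out 1 array at a time gave 389 to 1290 calls, 212 to 579 higher and 177 to 711 lower. Without wild-type controls 2 and 3 together, the arrays with the male pattern, 405 calls were left (244 and 161), and 89 of the 207 named calls were lost. The lone remaining control, which carried the pancreatic signal, was then assumed to vary like the other groups. The lost calls included Il1a, Ccl22, Cd274, Pdcd1lg2, Procr and Chac1, which differed by 2.46, 2.98, 2.40, 1.63, 2.56 and 3.42 in that fit. Klf4, Itgax, Tm6sf1, Tob1 and Nts, also among them, differed by -1.93, -2.19, -1.77, -1.68 and 2.64. Same-numbered arrays share only a number: their deviations from the group means correlated at 0.14, -0.282 and 0.273. With the replicate number as a block 836 genes were called (416 and 420). The 6 wild-type arrays alone gave 842 calls, and the median shift 1021. The medians of 10 of the 59 lists changed sign under 1 or more scalings. With quantile normalization the adjusted p was 0.0543 for Fscn1, 0.0594 for Marco and 0.0502 for Slfn2. The number of arrays and the share of dim probe sets limit the precision. A floor of 20 left 692 calls. With a floor of 32 the adjusted p was 0.131 for Cd163, 0.337 for Havcr2, 0.221 for Cd209a, 0.223 for Per3 and 0.114 for Trem1. Removing an array also leaves fewer samples, and the part of each array in the loss was not tested.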
